A study of Mus musculus with 12 samples.

Results

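The 9 genes described here are macrophage genes that are often read together in tumours: Csf1r and Adgre1, the complement C1q chains C1qa, C1qb and C1qc, Trem2, Gpnmb, Spp1 and Arg1. They were chosen by symbol, through the GENCODE M21 names of the Ensembl identifiers, and all 9 were found among the 56262 identifiers of the lung count table. RNA with a poly-A tail was read from 3 lung tumours and from the adjacent lung of the same 3 C57BL/6 mice (numbers 102, 217 and 224), aged 18 months. All 6 lung libraries therefore come from mice with a knockout of Med23, a subunit of the Mediator complex, in T cells, and no lung of a wild-type mouse is among them. A second table holds type 2 alveolar (AT2) cells, the surfactant-making cells of the lung, sorted from 3 wild-type mice and from 3 mice with the same T cell knockout, aged 6 months. The promoter that drove the deletion is not given in the sources used here. A tumour in these data is 1 library of 1 mouse, and p-values measure the spread between these mice.

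Macrophages of the lung include alveolar macrophages, which live in the air spaces and clear surfactant, and interstitial macrophages of the tissue. CSF1R is the receptor for the growth factors CSF1 and IL-34, on which macrophages depend. C1q is the recognition part of the first complement component and is built from 3 chains encoded side by side. TREM2 is a lipid-sensing receptor that signals through the adaptor TYROBP, GPNMB is a membrane glycoprotein of lipid-laden and lysosome-rich macrophages, and osteopontin (Spp1) is a secreted phosphoprotein that binds integrins and CD44. Arginase 1 (Arg1) splits arginine into ornithine and urea.

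The windows around the start sites of 5 members are shown, those that the RefSeq promoter table held. They are members whose profiles across libraries are compared with each other: Spp1, Gpnmb and Trem2, and the C1q chains C1qb and C1qc. Each runs 5′ to 3′ in the direction of the gene, from 250 bases before to 50 bases after the RefSeq start, on GRCm38.p6. Capitals mark matches to GAGGAA (a core bound by the macrophage factor PU.1), CACGTG (the E-box of the TFEB, TFE3 and MITF factors), CATGTG (the MITF M-box core) or TGANTCA (the AP-1 site), searched on both strands.
Spp1, chr5:104434861-104435160, plus strand: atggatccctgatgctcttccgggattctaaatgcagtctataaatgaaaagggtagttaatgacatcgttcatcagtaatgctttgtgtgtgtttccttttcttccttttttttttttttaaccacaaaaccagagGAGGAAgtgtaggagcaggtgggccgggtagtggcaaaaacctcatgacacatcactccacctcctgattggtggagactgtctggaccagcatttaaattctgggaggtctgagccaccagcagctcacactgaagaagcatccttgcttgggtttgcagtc
Gpnmb, chr6:49036268-49036567, plus strand: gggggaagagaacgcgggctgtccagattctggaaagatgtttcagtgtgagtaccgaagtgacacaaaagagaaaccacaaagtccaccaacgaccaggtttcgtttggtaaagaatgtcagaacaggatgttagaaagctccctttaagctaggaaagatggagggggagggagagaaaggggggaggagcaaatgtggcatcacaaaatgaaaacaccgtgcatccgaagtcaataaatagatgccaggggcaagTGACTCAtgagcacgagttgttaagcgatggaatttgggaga
Trem2, chr17:48346151-48346450, plus strand: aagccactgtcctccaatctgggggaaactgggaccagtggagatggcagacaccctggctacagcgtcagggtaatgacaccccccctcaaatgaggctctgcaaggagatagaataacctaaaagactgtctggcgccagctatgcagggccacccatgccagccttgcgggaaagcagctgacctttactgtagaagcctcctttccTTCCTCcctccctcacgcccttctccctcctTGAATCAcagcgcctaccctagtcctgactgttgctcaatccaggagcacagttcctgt
C1qb, chr4:136886151-136886450, minus strand: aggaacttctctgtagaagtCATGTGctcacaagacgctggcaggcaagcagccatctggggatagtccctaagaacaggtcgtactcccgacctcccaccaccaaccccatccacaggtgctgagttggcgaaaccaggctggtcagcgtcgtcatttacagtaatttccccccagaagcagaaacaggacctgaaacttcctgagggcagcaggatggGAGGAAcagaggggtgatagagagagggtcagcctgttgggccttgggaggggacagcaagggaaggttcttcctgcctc
C1qc, chr4:136892865-136893164, minus strand: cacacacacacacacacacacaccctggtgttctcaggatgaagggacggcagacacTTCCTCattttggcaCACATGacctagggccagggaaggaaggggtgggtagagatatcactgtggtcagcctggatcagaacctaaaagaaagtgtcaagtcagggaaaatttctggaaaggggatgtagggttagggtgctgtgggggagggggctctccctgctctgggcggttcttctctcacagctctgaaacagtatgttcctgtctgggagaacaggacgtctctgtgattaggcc
The Spp1 window holds GAGGAA at −113 from the start, and the Gpnmb window holds TGACTCA at 8. The Trem2 window holds TGAATCA at −9 and, read on the opposite strand, TTCCTC at −40. Both C1q windows hold GAGGAA, read on the opposite strand in C1qc, and the CATGTG core, which appears as CACATG in C1qc. With a second Spp1 start counted, 4 of 6 member windows held GAGGAA, against 28.1% of 32544 mouse promoters of this length. CATGTG was in 2 of 6 (14.2% of all promoters), TGANTCA in 2 of 6 (7.79%) and CACGTG in 0 of 6 (7.17%). A match describes these letters and shows no binding.

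Each lung library held between 65163100 and 77951014 counts and each AT2 library between 15943084 and 18913242, and levels are given in CPM, a gene's count divided by its library's total, after scaling of that total by edgeR's TMM factor (0.8064 to 1.155 in lung), and multiplied by 1000000. The lung table was tested with edgeR's quasi-likelihood test, with p-values adjusted by the Benjamini-Hochberg method over 19995 genes, and a gene passed at an adjusted p below 0.05. In tumours 571 genes were higher and 1436 lower than in adjacent lung (28.5% of the calls higher; 393 and 1840, 17.6% higher, when scaled to library totals alone). The median log2 fold change of all tested genes was 0.04, and scaling to library totals moved it by −0.22. The lung libraries carried the pan-leukocyte gene Ptprc at a mean of 42.4 ± 8.61 CPM (SD, n = 3) in tumours and 103 CPM in adjacent lung. In whole tissue, fewer macrophages and less RNA per macrophage cannot be told apart.

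None of the 9 members passed the test between tumours and adjacent lung, where 10.0% of all genes passed (2.86% higher and 7.18% lower in tumours). At an unadjusted p below 0.05 there were 5 of 9, Csf1r, Adgre1, Trem2, Gpnmb and Spp1, each lower in tumours, against 4791 of 19995 genes. The count was also 0 with limma-voom and with the mouse as a block, under which 14.9% of all genes passed (5.57% higher and 9.34% lower). With DESeq2, Spp1 and Gpnmb passed as lower in tumours, where 15.8% of all genes passed (4.37% higher and 11.4% lower). The members differed most in how they varied between mice, and in Spp1, Gpnmb and Trem2 that variation lay mostly in adjacent lung.

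**Figure D1:**
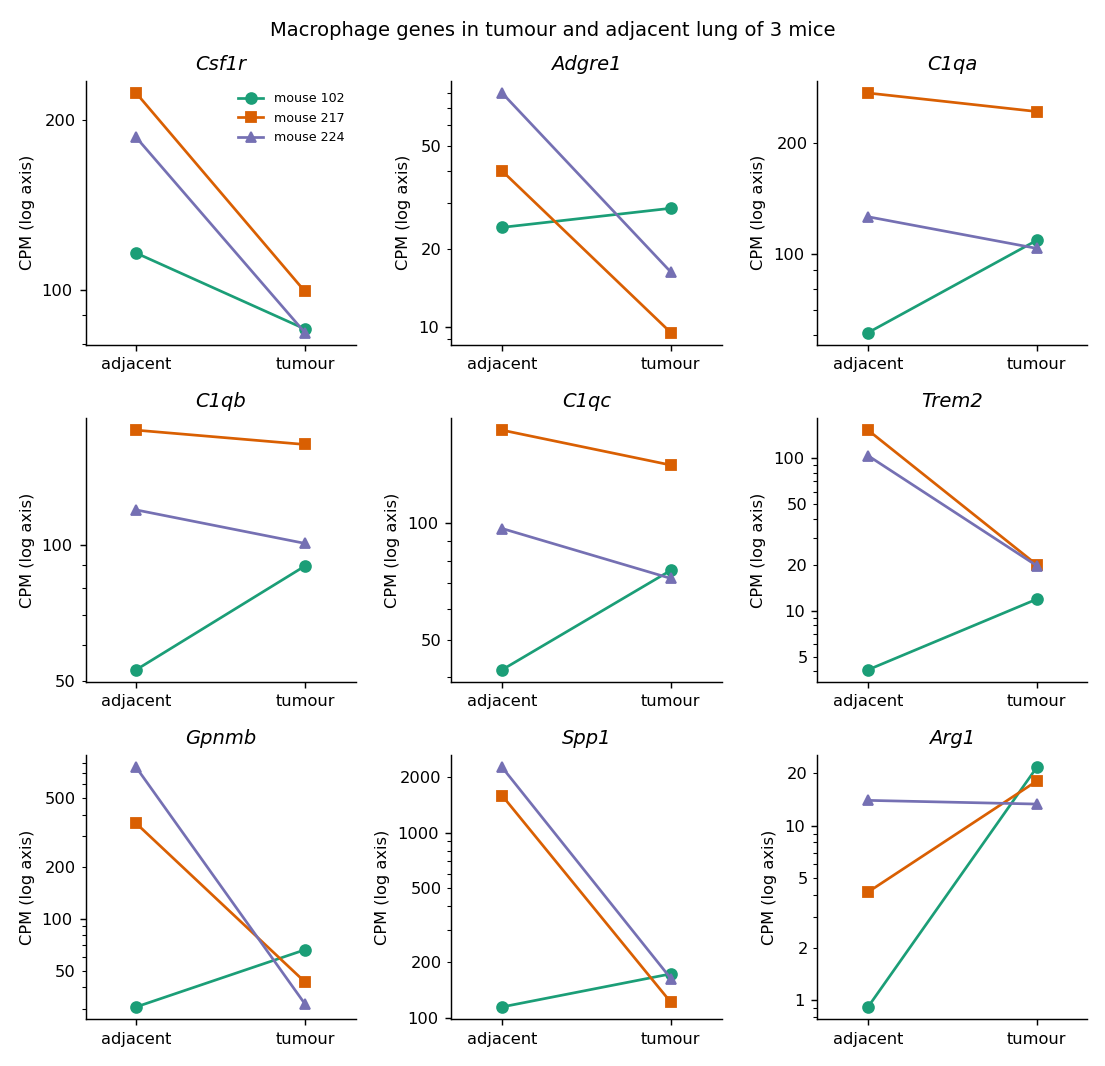
Level in CPM of the 9 members in each lung library on a log10 axis, with a line joining the tumour and the adjacent lung of each mouse. Spp1, Gpnmb and Trem2 are 1 to 2 powers of 10 higher in the adjacent lung of mice 217 and 224 than in that of mouse 102, while the 3 tumours sit close together.

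Csf1r (ENSMUSG00000024621, chr18:61100598-61132149, plus strand) encodes the CSF1 receptor, a tyrosine kinase of the macrophage lineage. Its level was 85.1, 99.2 and 83.9 CPM in tumours 102, 217 and 224, and 116, 223 and 186 CPM in the adjacent lung of the same mice. The tumours were alike, every adjacent library was higher, and Csf1r was the only 1 of 9 members whose groups did not overlap. Among all tested genes 30.5% had groups that did not overlap, and 18.9% did so with tumours lower. The means were 89.4 ± 8.54 CPM in tumours and 175 ± 54.4 CPM in adjacent lung (SD, n = 3 each). The log2 fold change was −0.97 ± 0.33 (SE, edgeR adjusted p = 0.113), and −0.92 ± 0.22 with the mouse as a block (edgeR adjusted p = 0.0542). Within mice the log2 difference was −0.45, −1.17 and −1.15 in 102, 217 and 224. The gene overlaps Hmgxb3 on the opposite strand, and without strand their reads cannot be told apart.

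Adgre1 (ENSMUSG00000004730, chr17:57358691-57483527, plus strand) encodes F4/80, an adhesion receptor long used to mark mouse macrophages. It stood at 28.7, 9.50 and 16.3 CPM in tumours against 24.2, 40.0 and 79.9 CPM in adjacent lung. Tumour 102 was a little above its adjacent lung, and the other tumours were below theirs, by −2.07 and −2.30 on the log2 scale. The log2 fold change of −1.40 ± 0.56 (SE) did not pass (edgeR adjusted p = 0.174).

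Some of the growth factors and transcription factors of this lineage did pass. Of 14 such genes tested, 2 were higher and 4 lower in tumours, with a median log2 fold change of −1.16. Among all tested genes 2.86% were higher and 7.18% lower, the shares to set beside this and each later list. Csf1, a ligand of CSF1R, fell from 56.4 ± 11.2 CPM in adjacent lung to 8.68 ± 3.69 CPM in tumours (n = 3 each, log2 fold change −2.70 ± 0.40, edgeR adjusted p = 0.011). Its 3 tumours, at 6.12, 12.9 and 7.01 CPM, lay below the 3 adjacent libraries, at 44.9, 67.2 and 57.0 CPM. Il34, the other ligand, went the opposite way and was looked at after its values were seen. It stood at 58.8, 102 and 56.1 CPM in tumours against 15.5, 29.8 and 23.4 CPM in adjacent lung (log2 fold change 1.66 ± 0.39, edgeR adjusted p = 0.0367). That call was lost when any 1 of the 6 libraries was left out (adjusted p 0.0659 to 0.119), whereas Csf1 passed in all 6 of those fits.

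Klf4, a zinc finger factor of monocytes and many other cells, fell from 183 ± 83.6 to 18.1 ± 6.30 CPM (log2 fold change −3.34 ± 0.46, edgeR adjusted p = 0.0092). Maf, a macrophage transcription factor, fell from 43.9 ± 9.63 to 8.91 ± 2.03 CPM (log2 fold change −2.30 ± 0.34, edgeR adjusted p = 0.0111). Both passed with each library left out. Cebpa, a factor of myeloid cells that AT2 cells also make, rose from 222 CPM to 1078 ± 156 CPM (log2 fold change 2.28 ± 0.38, edgeR adjusted p = 0.0145), and lost the call without tumour 224 or adjacent 217 (adjusted p up to 0.0519). Another fit was scaled to the summed counts of 17 phagocyte genes instead of all genes. Lyz2, which AT2 cells also make, held 68.9% to 89.3% of that sum. This scaling shifts the all-gene median log2 fold change by 0.73. Under it Klf4, Csf1 and Maf no longer passed (edgeR adjusted p = 0.118, 0.488 and 0.493). Their log2 fold changes were then −2.97 ± 1.10, −1.81 ± 1.05 and −1.79 ± 1.05, with errors wider than before, and Cebpa passed at 3.295 ± 1.05 (edgeR adjusted p = 0.0458).

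The 3 C1q genes lie next to each other on the minus strand of chromosome 4: C1qb (ENSMUSG00000036905, chr4:136880129-136886187), C1qc (ENSMUSG00000036896, chr4:136889804-136893065) and C1qa (ENSMUSG00000036887, chr4:136895917-136898803). None differed between tumours and adjacent lung beyond its spread, and all 3 had nearly the same profile over the 6 libraries. C1qa, the A chain, was at 109, 244 and 103 CPM in tumours 102, 217 and 224, against 60.9, 274 and 126 CPM in adjacent lung. C1qb, the B chain, was at 89.6, 167 and 101 CPM in tumours against 52.8, 179 and 119 CPM in adjacent lung. C1qc, the C chain, was at 75.5, 141 and 71.9 CPM in tumours against 41.8, 174 and 96.8 CPM in adjacent lung. In every chain the highest tumour and the highest adjacent library were those of mouse 217, and adjacent 102 was the lowest of the 6.

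The C1qa means were 152 ± 79.7 CPM in tumours and 154 ± 109 CPM in adjacent lung (SD, n = 3 each), with a log2 fold change of −0.02 ± 0.59 (SE, edgeR adjusted p = 0.994). For C1qb and C1qc the log2 fold changes were 0.02 ± 0.48 and −0.11 ± 0.53 (edgeR adjusted p = 0.988 and 0.938). An SE of this size leaves differences of about 1 log2 unit undetectable here. Within mouse 102 each chain was higher in the tumour, by 0.84, 0.76 and 0.85 on the log2 scale for C1qa, C1qb and C1qc. Within mice 217 and 224 each was lower in the tumour, by between −0.11 and −0.43.

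Per kilobase of exon, C1qa was at 58.5 to 264 CPM per kb over the 6 libraries, C1qb at 48.6 to 165 and C1qc at 21.6 to 90.0. The ratio of C1qa to C1qb per kb ranged from 1.07 to 1.6, and that of C1qc to C1qb from 0.403 to 0.547, although the chains themselves varied more than 3-fold in adjacent lung. The root mean square difference between the centred log2 CPM profiles of 2 chains was 0.127 to 0.219. Short transcripts as a class were also higher in the libraries of mouse 217: Spearman's rho between exon length and centred log2 CPM over genes was −0.245 and −0.221 in its tumour and adjacent lung, and between 0.0567 and 0.206 in the other 4 libraries. The 1337 genes of a length like that of C1qa (1040 bases) had a median centred log2 CPM of 0.33 and 0.28 in tumour and adjacent 217, where C1qa was at 0.87 and 1.03. The part of length in the C1q profile was not tested.

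C1q acts with the proteases C1r and C1s, which cleave C4 and C2, and is held in check by the C1 inhibitor. Of the 6 genes for these partners and later components, 3 were lower in tumours and 0 higher (4 lower with the mouse as a block), with a median log2 fold change of −1.84. C1s1, the protease C1s, fell from 164 CPM to 34.7 ± 14.4 CPM (n = 3, log2 fold change −2.24 ± 0.40, edgeR adjusted p = 0.0174) and lost the call without adjacent 102 or adjacent 224 (adjusted p up to 0.0611). C2 and Serping1, the C1 inhibitor, passed in only 1 of 6 fits that each left out a library (adjusted p up to 0.135 and 0.141). Of 11 genes for receptors of C1q and of C3 fragments, 2 were lower, Lrp1 (165 against 560 CPM) and Cd93 (113 against 517 CPM), at edgeR adjusted p of 0.0248 and 0.0251. Lrp1 encodes a large endocytic receptor and Cd93 a C-type lectin of endothelial and myeloid cells. Both calls were lost without any of tumour 102, tumour 224, adjacent 102 or adjacent 224 (adjusted p up to 0.0921 and 0.0866).

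Trem2 (ENSMUSG00000023992, chr17:48346401-48354147, plus strand) was at 11.9, 19.9 and 19.7 CPM in tumours 102, 217 and 224, against 4.10, 152 and 103 CPM in adjacent lung. The highest tumour was 1.68 times the lowest, and the highest adjacent library 37.1 times the lowest. The tumours lay between adjacent 102 and the other adjacent libraries. The log2 fold change was −2.33 ± 1.004 (SE, n = 3 each, edgeR adjusted p = 0.208), and −1.47 ± 1.06 with the mouse as a block (edgeR adjusted p = 0.402). The within-mouse differences were 1.54 in mouse 102, −2.93 in 217 and −2.39 in 224.

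Gpnmb (ENSMUSG00000029816, chr6:49036546-49070929, plus strand) was at 65.9, 43.0 and 32.0 CPM in tumours against 30.8, 356 and 752 CPM in adjacent lung. Adjacent 102 was below all 3 tumours, and the other adjacent libraries were at least 5 times the highest tumour. The log2 fold change was −3.01 ± 0.96 (SE, n = 3 each, edgeR adjusted p = 0.0939), and −2.425 ± 1.355 with the mouse as a block (edgeR adjusted p = 0.287). The within-mouse differences were 1.10, −3.05 and −4.55 on the log2 scale.

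Of 13 genes for TREM2 signalling partners and ligands, 0 were higher and 3 lower in tumours (5 lower with the mouse as a block), with a median log2 fold change of −1.281. Inpp5d, the lipid phosphatase SHIP1 of blood cells, fell from 90.4 CPM to 27.7 ± 5.98 CPM (edgeR adjusted p = 0.017), and Syk, the kinase that binds phosphorylated TYROBP, fell from 128 CPM to 37.5 ± 9.35 CPM (edgeR adjusted p = 0.0336). Inpp5d lost the call without tumour 224 or adjacent 224 (adjusted p up to 0.069), and Syk in 5 of 6 fits that left out a library (up to 0.113) and with the mouse as a block (0.0535). Treml2, a relative of TREM2, was the other gene that passed, and it passed in 2 of 6 such fits. Of 19 genes listed for TREM2-dependent, lipid-handling macrophages, a dependence not tested here, 0 passed, with a median log2 fold change of −0.78. With the mouse as a block 1 was lower, the lipoprotein lipase Lpl (edgeR adjusted p = 0.0474), and without adjacent 102 there were 3 lower. The genes of highest level on that list were Ctsd, a lysosomal protease, at 1375 CPM in tumours against 3930 CPM in adjacent lung, and Npc2, a cholesterol carrier that AT2 cells also make, at 2508 and 1566 CPM.

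The 6 genes for GPNMB regulators and partners gave 1 call, Sdc4, a heparan sulphate proteoglycan of many cell types, which rose from 191 to 707 ± 157 CPM (log2 fold change 1.89 ± 0.32, edgeR adjusted p = 0.0156). It lost the call without tumour 224 or without any adjacent library (adjusted p up to 0.0727).

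Spp1 (ENSMUSG00000029304, chr5:104435118-104441050, plus strand) had the highest mean level of the members in adjacent lung. It was at 173, 121 and 163 CPM in tumours 102, 217 and 224, against 115, 1589 and 2258 CPM in adjacent lung. Adjacent 217 and 224 were 13.9 and 19.7 times adjacent 102, while the 3 tumours spanned 1.42-fold and lay just above adjacent 102. The means were 152 ± 27.4 CPM and 1321 ± 1097 CPM (SD, n = 3 each), with a log2 fold change of −3.12 ± 0.92 (SE, edgeR adjusted p = 0.075) and of −2.54 ± 1.14 with the mouse as a block (edgeR adjusted p = 0.202). Within mice the difference was 0.59, −3.71 and −3.79. A gene model of the same strand, Gm42793, overlaps Spp1, so some of its reads may be counted elsewhere.

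In the edgeR fits the calls on these 3 members turn on the library adjacent 102, while DESeq2 called Spp1 and Gpnmb with it kept. It was the lowest adjacent library for each of the 3, so leaving it out also narrows their spread. Without it, Spp1 fell by 3.64 ± 0.40 on the log2 scale, Trem2 by 2.89 and Gpnmb by 3.52 ± 0.50, at edgeR adjusted p of 0.0262, 0.0284 and 0.0306. In that fit 3 of 9 members were lower, where 3.65% of all genes passed (1.0% higher and 2.64% lower), and adjacent lung rests on 2 mice. The summed level of 13 alveolar macrophage markers was 804 CPM in adjacent 102, 8925 and 8833 CPM in adjacent 217 and 224, and 1148 to 2535 CPM in the 3 tumours. In adjacent 217 and 224 most of that sum was Chil3, at 7439 and 7156 CPM, against 339 CPM in adjacent 102. None of the 13 markers was at 0 in every library. Gene by gene, 10 of the 13 were higher in both adjacent 217 and adjacent 224 than in adjacent 102, and Siglecf, Krt79 and Fabp1 were not. The lower of the 2 folds was 21.1 for Chil3 and 8.56 for Fabp4, the next gene. The median of the 13 was 3.02-fold in adjacent 217 and 2.97-fold in adjacent 224. The lower folds of Spp1, Gpnmb and Trem2 were 13.9, 11.6 and 25.2, and that of Chil3 lay among them. Summed osteoclast markers, which share lysosomal genes with macrophages, were at 200.3, 1189 and 1301 CPM in adjacent lung and 201 to 264 CPM in tumours. Summed phagocyte genes without Lyz2, which AT2 cells also make, were at 1172, 4614 and 3911 CPM in adjacent lung and 1280 to 1767 CPM in tumours. The part of macrophage number or kind in the Spp1, Gpnmb and Trem2 values was not tested.

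Osteopontin binds several integrins and CD44. Of 10 receptor genes, 0 were higher and 1 lower in tumours (1 and 3 under the block). The gene that passed was Itga4, the alpha chain of the integrin VLA-4 of leukocytes, which fell from 39.6 to 7.79 ± 1.249 CPM (log2 fold change −2.35 ± 0.31, edgeR adjusted p = 0.00871). It passed with each library left out and no longer passed when scaled to the phagocyte genes (−1.77 ± 1.06, edgeR adjusted p = 0.505).

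**Figure D2:**
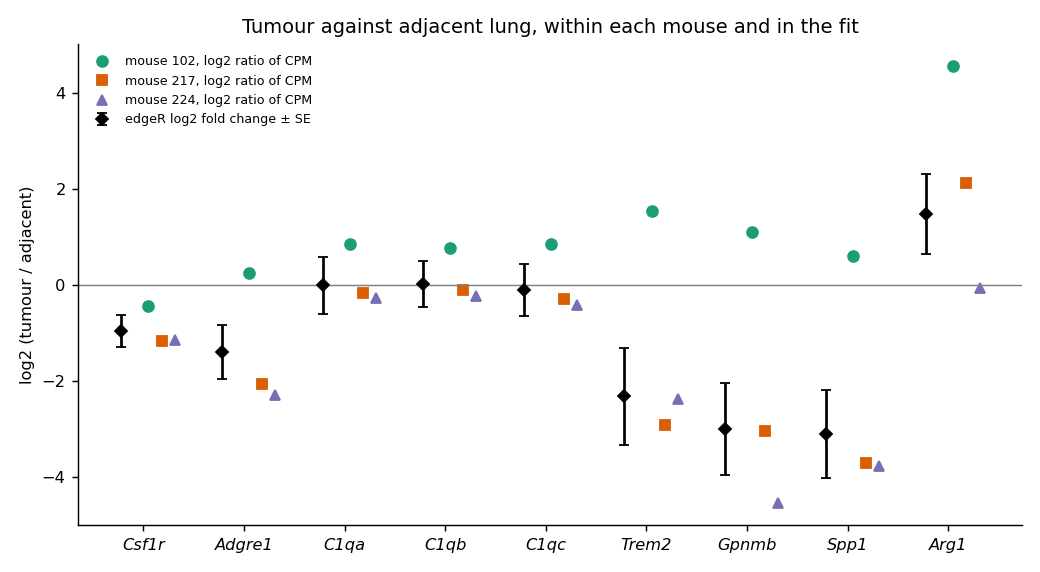
Log2 ratio of tumour to adjacent lung for the 9 members: coloured points are the ratio of CPM within each of the 3 mice, and black points with bars are the edgeR log2 fold change with its standard error (n = 3 against 3). Mouse 102 lies above the other mice in every member, at 1.54 for Trem2 against −2.93 and −2.39 in mice 217 and 224, and the fitted values of the C1q chains lie at 0 within their error.

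Arg1 (ENSMUSG00000019987, chr10:24915221-24927484, minus strand) was at 21.6, 18.0 and 13.3 CPM in tumours 102, 217 and 224, against 0.914, 4.16 and 13.9 CPM in adjacent lung. The tumours were alike, and the adjacent libraries spanned 15.3-fold, from 73 counts in adjacent 102 to 1048 in adjacent 224. Adjacent 224 was as high as its tumour. The log2 fold change was 1.48 ± 0.83 (SE, n = 3 each, edgeR adjusted p = 0.349), and 2.16 ± 1.006 with the mouse as a block (edgeR adjusted p = 0.214). Within mice the difference was 4.56, 2.11 and −0.07.

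Of 10 genes of arginine metabolism, 1 was higher and 1 lower in tumours (3 higher under the block), with a median log2 fold change of 0.19. Arg2, the mitochondrial arginase, rose to 107, 76.5 and 79.1 CPM in tumours from 10.7, 7.59 and 5.87 CPM in adjacent lung. Its log2 fold change was 3.44 ± 0.36 (edgeR adjusted p = 0.00592), and it passed in every alternative fit that was run. Ass1, which makes the arginine precursor argininosuccinate, fell from 30.0 to 7.35 ± 1.99 CPM (edgeR adjusted p = 0.0164) and lost the call without tumour 224, adjacent 217 or adjacent 224 (adjusted p up to 0.0642). Of 13 tested genes of alternative activation, the state in which mouse macrophages are known to make arginase 1, 0 were higher and 3 lower, with a median log2 fold change of −1.56. Retnla, a secreted protein of such macrophages and of airway cells, fell from 816 to 28.1 ± 18.9 CPM (log2 fold change −4.86 ± 0.69, edgeR adjusted p = 0.00998), and passed with each library left out but not without mouse 217 (adjusted p = 0.0545). Cd163, a haemoglobin scavenger receptor, and Ccl24, an eosinophil chemokine, passed in 2 and 1 of 6 fits that left out a library (adjusted p up to 0.0953 and 0.104). With the mouse as a block the list gave 1 higher and 2 lower: Ccl24 no longer passed (edgeR adjusted p = 0.0651), and the chemokine Ccl17 passed as higher (edgeR adjusted p = 0.0366).

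Set against Csf1r in the same library, the ratios of the C1q chains and Arg1 were higher in tumours, and the other ratios overlapped between groups. Csf1r itself was lower in every tumour than in any adjacent library, which raises any ratio to it in tumours. C1qa was 1.277, 2.459 and 1.232 times Csf1r in tumours 102, 217 and 224 and 0.524, 1.228 and 0.676 times in adjacent lung, in CPM. The ratio of adjacent 217 was nearly level with that of tumour 224, so the groups barely separated. The ratio of C1qb to Csf1r was 1.05, 1.68 and 1.2 in tumours and 0.455, 0.802 and 0.64 in adjacent lung, and that of C1qc 0.887, 1.42 and 0.858 against 0.36, 0.778 and 0.52. Arg1 was at 0.253, 0.181 and 0.158 of Csf1r in tumours and at 0.00787, 0.0186 and 0.0748 in adjacent lung. Sorted AT2 cells, which hold few macrophage transcripts, had Arg1 at 6.63 to 14.4 CPM. Summed AT2 markers were at 77300 to 227200 CPM in tumours and 22690 to 43340 CPM in adjacent lung. The part of AT2 cells in the ratio of Arg1 to Csf1r was not tested.

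Each of these 4 ratios was higher in all 3 tumours than in any adjacent library, with mean log2 differences of 1.05 ± 0.49, 1.06 ± 0.31, 0.97 ± 0.40 and 3.12 ± 0.97 (SE). Csf1r, the denominator, was itself lower in every tumour. Its log2 fold change was −0.97, and those of C1qa, C1qb and C1qc were −0.02, 0.02 and −0.11. The share of all genes whose ratio to Csf1r separates this way was not computed. The exact two-sided permutation test gave p = 0.1 for each of the 4 ratios, the smallest that 3 against 3 can give, and 0.3 after Benjamini-Hochberg adjustment over 12 ratios. Taken within mice, the differences for 102, 217 and 224 were 1.29, 1.002 and 0.86 for C1qa, 1.21, 1.07 and 0.91 for C1qb, 1.302, 0.87 and 0.72 for C1qc, and 5.01, 3.28 and 1.08 for Arg1. The standard error of the mean within-mouse difference was 0.12, 0.088 and 0.17 for the 3 chains and 1.14 for Arg1. The exact sign-flip test of these pairs gave p = 0.25 for each, the smallest that 3 pairs can give. Neither exact test could pass with 3 mice. The ratios of Trem2, Gpnmb and Spp1 to Csf1r overlapped between groups, and Spp1 ranged from 0.987 times Csf1r in adjacent 102 to 12.1 times in adjacent 224. The ratio of C1qa to C1qb (1.03 to 1.53) and that of Gpnmb to Spp1 (0.196 to 0.381) had exact permutation p of 1.0 and 0.7.

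**Figure D3:**
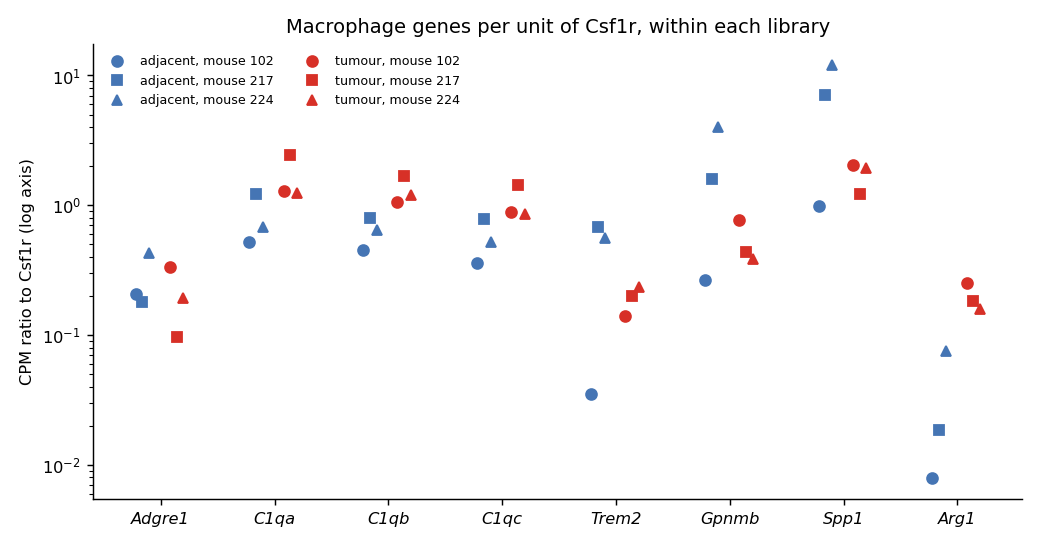
Ratio of the CPM of each other member to that of Csf1r in the 6 lung libraries, on a log axis, with 1 point per library and the mouse marked. The ratios of the C1q chains and Arg1 are higher in each tumour than in any adjacent library, and those of Spp1, Gpnmb and Trem2 overlap. Csf1r, the denominator, is itself lower in each tumour, and the share of all genes whose ratio separates this way was not computed.

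Compared per kilobase of exon, C1qa, C1qb and Spp1 led the members in tumours, at means of 146, 109 and 92.5 CPM per kb, and these 3 did not separate beyond their spread. In tumour 102 Spp1 and C1qa were level, at 104.9 and 104.5 CPM per kb. C1qc followed at 49.8, then Csf1r at 15.5, and Arg1, Gpnmb, Adgre1 and Trem2 lay between 3.47 and 7.91 CPM per kb. In adjacent lung Spp1 led at a mean of 801 CPM per kb, though it was at 69.5 in adjacent 102 and at 964 and 1370 in the others. Trem2, at 0.828 CPM per kb, and Arg1, at 0.410, were lowest in adjacent 102.

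The other genes whose profile over the 6 lung libraries was closest to each pattern were sought among 11911 protein-coding genes with a mean of at least 5 CPM, by the root mean square difference of centred log2 CPM. With 6 libraries and many candidates such likeness is a description. For Spp1 they were Cd22 (0.477), B3gnt7 (0.484), Cd200r4 (0.503) and Ctsk (0.541). For Gpnmb they were Ctsk (0.441), Ly6i (0.474), Fcer2a (0.476) and Ptgir (0.507). Ctsk, cathepsin K, a protease best known from osteoclasts, is on both lists, and stood at 51.2, 63.7 and 25.8 CPM in tumours against 49.0, 561 and 784 CPM in adjacent lung.

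For Trem2 the closest were Zranb3 (0.515), Msr1 (0.578), Acp5 (0.645) and Awat1 (0.659). Msr1, a macrophage scavenger receptor, was at 13.2, 9.33 and 10.7 CPM in tumours against 3.85, 53.3 and 52.3 CPM in adjacent lung. Gpnmb and Spp1 were closer to each other (0.351) than either was to any of these genes, and Trem2 was 0.765 from Spp1. For the mean of the C1q chains the closest were Nme1 (0.0951), Sdf2l1 (0.121), Nusap1 (0.165) and Cd63 (0.166). Nme1, a nucleoside diphosphate kinase of most cells, was at 37.1, 83.9 and 35.0 CPM in tumours against 21.9, 89.9 and 44.9 CPM in adjacent lung. The C1q chains were 1.55 to 1.63 from Spp1, and Arg1 was 2.31 from Spp1.

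**Figure D4:**
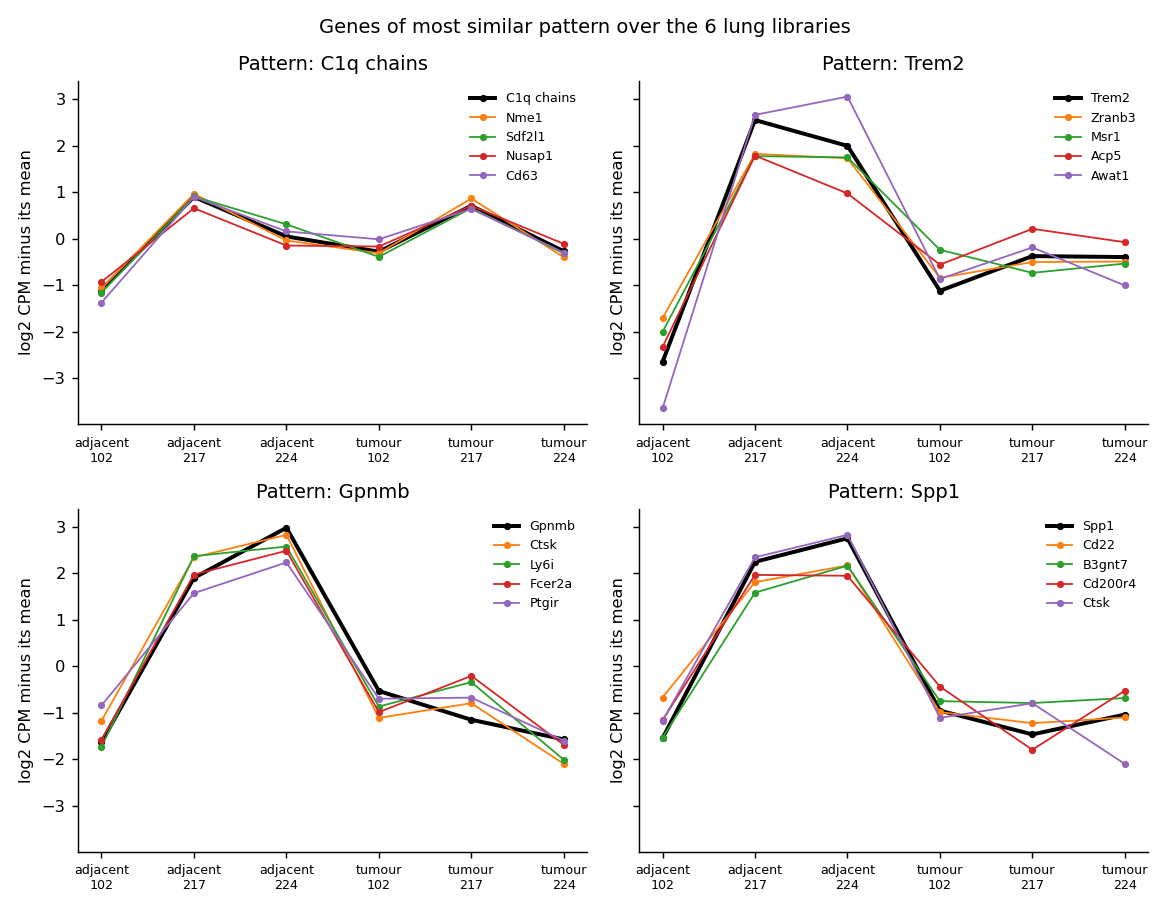
Centred log2 CPM over the 6 lung libraries of the C1q mean, Trem2, Gpnmb and Spp1, each with the 4 protein-coding genes of smallest root mean square difference. The C1q pattern peaks in both libraries of mouse 217, and the Trem2, Gpnmb and Spp1 patterns are high in adjacent 217 and 224.

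Markers of the cells that carry these members were listed by type, and among all tested genes 2.86% were higher and 7.18% lower in tumours. Of 17 general phagocyte genes 0 were higher and 2 lower in tumours, with a median log2 fold change of −1.20. Mertk, a receptor for dying cells, fell from 78.1 to 17.1 ± 3.80 CPM (log2 fold change −2.20 ± 0.33, edgeR adjusted p = 0.0113) and passed with each library left out, while Ptprc passed in 0 of those 6 fits (adjusted p up to 0.137). Of 13 alveolar macrophage markers 0 were higher and 2 lower: Krt79 (0.461 against 12.2 CPM, edgeR adjusted p = 0.0111) and Car4, which capillary cells also make and which passed in 0 of 6 left-out fits (adjusted p up to 0.157).

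Of 12 interstitial macrophage markers 1 was higher and 5 lower. F13a1, a coagulation factor chain of tissue macrophages and monocytes, fell from 22.6 to 2.35 ± 0.117 CPM (log2 fold change −3.26 ± 0.37, edgeR adjusted p = 0.00664). Pf4, a chemokine of platelets and of some macrophages, rose to 143, 856 and 412 CPM in tumours from 15.1, 26.1 and 9.67 CPM in adjacent lung (log2 fold change 4.80 ± 0.76, edgeR adjusted p = 0.0126). It lost the call without adjacent 102 or adjacent 224 (adjusted p up to 0.0554). With Pf4 among them, the summed interstitial markers were at 330, 1046 and 593 CPM in tumours and 628, 421 and 395 CPM in adjacent lung. Pf4 alone was most of that sum in tumours 217 and 224, so the sum does not describe the other markers. The median log2 fold change of the 12 was −1.19, and 5 of them fell. Scaled to the phagocyte genes, Mertk (−1.44 ± 1.04) and F13a1 (−2.70 ± 1.12) no longer passed (edgeR adjusted p = 0.592 and 0.212), while Pf4 (5.78 ± 1.22), Krt79 (−4.23 ± 1.279) and Cd163 (−3.98 ± 1.27) did (edgeR adjusted p = 0.000387, 0.0293 and 0.045).

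Other cells were read the same way. Of 10 monocyte, 10 neutrophil and 10 dendritic cell markers, 3, 1 and 2 were lower and 0 higher (5, 4 and 2 with the mouse as a block). Of 9 tested markers of group 2 innate lymphoid cells, which make interleukin 13, a known inducer of arginase 1, 4 were lower, among them Gata3 (0.741 against 10.6 CPM, edgeR adjusted p = 0.00871, log2 fold change −3.84 ± 0.50). Gata3 passed in all 6 fits that left out a library. Il1rl1, Il7r and Calca each passed in only 1 of 6 (edgeR adjusted p up to 0.0619, 0.122 and 0.121). Scaled to the phagocyte genes, Gata3 was at −3.10 ± 1.22 (edgeR adjusted p = 0.167). Group 2 innate lymphoid cells also express Arg1 themselves, and their summed markers were at 28.1 to 62.5 CPM in tumours and 59.9 to 119 CPM in adjacent lung. Of 10 AT2 markers, 2 were higher (6 under the block), and their sum was 77300 to 227200 CPM in tumours and 22690 to 43340 CPM in adjacent lung. Neutrophil markers summed to 465, 1146 and 71.0 CPM in adjacent 102, 217 and 224. Melanocyte markers, read for Gpnmb, summed to 1.41 to 5.84 CPM over the 6 libraries, with 2 of 6 at 0 in all. Hepatocyte markers, read for Arg1, summed to 0.281 to 24.0 CPM. The part of these cells in the member values was not tested. Over 20 such lists, which name 205 genes with 196 tested, 7 were higher and 34 lower (15 and 45 with the mouse as a block). The shares over all tested genes were 2.86% higher and 7.18% lower (5.57% and 9.34% with the mouse as a block).

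In sorted AT2 cells the members were close to absent, apart from Csf1r and Arg1. The C1q chains, Trem2, Gpnmb and Spp1 each had at most 12 counts in any library. A count of 0 was found for Trem2 in 3 of 6 libraries, which allows up to 0.181 CPM in the library where 3 counts weigh most, and for C1qb in 3, Gpnmb in 2 and Spp1 in 2. Only Csf1r, Adgre1 and Arg1 had counts enough for the test. Other leukocyte genes were low as well: Tyrobp was at 0.115 to 1.23 CPM, Ptprc at 4.07 to 13.2 CPM and Cd68, a lysosomal protein, at 11.7 to 17.6 CPM.

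Csf1r had 83, 65 and 120 counts in wild-type mice 176, 177 and 190 and 158, 99 and 95 counts in knockout mice 175, 179 and 191. Its mean was 5.17 ± 1.60 CPM in wild-type and 6.80 ± 2.11 CPM in knockout cells (SD, n = 3 each), with a log2 fold change of 0.40 ± 0.30 (SE, edgeR adjusted p = 0.984). Arg1 was at 8.53, 11.4 and 12.7 CPM in wild-type cells, against 14.4, 10.8 and 6.63 CPM in knockout cells (log2 fold change −0.04 ± 0.27, edgeR adjusted p = 0.994). Its groups overlapped, and its level lay within the range of the lung libraries, 0.914 to 21.6 CPM, a side by side view of separately normalised tables. Adgre1 had 5 to 18 counts per library (log2 fold change 0.24 ± 0.64, edgeR adjusted p = 0.989). Of 14053 genes tested in AT2 cells 0 passed with edgeR (0.0%), with 347 at an unadjusted p below 0.05 and 1 with DESeq2.

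**Figure D5:**
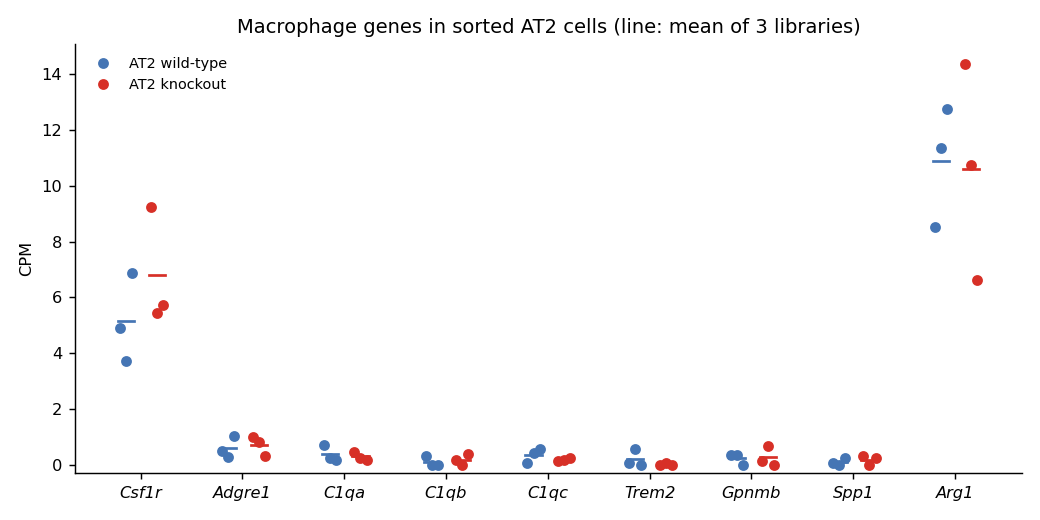
Level in CPM of the 9 members in sorted AT2 cells, with 1 point per library and a line at the mean of the 3 libraries of each group. Csf1r and Arg1 are the members of highest level, and the C1q chains, Trem2, Gpnmb and Spp1 stay below 1 CPM in each library.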

How the data were processed

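Poly-A RNA of 6 lung libraries and 6 sorted AT2 libraries was analysed from whole-number gene counts, not normalised, in the authors' 2 deposited tables. HISAT2, DESeq2 1.28.1, StringTie 1.3.3b, Trimmomatic 0.39 and FastQC are named, with build GRCm38, per the submitters' processing notes. How reads were counted, with which strand setting and annotation, is not given in the sources used here, and 0 columns were left unused. Symbols, coordinates and exon lengths came from GENCODE M21, promoters from RefSeq (GRCm38.p6). With chromosome 18, which holds Csf1r, left out, the promoter table matched 5 members.

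Each table was fitted on its own with edgeR 4.0.16 (filterByExpr, TMM, quasi-likelihood test, group only). The alternatives were DESeq2 size factors, library totals, no filter, DESeq2 1.42.0, limma-voom 3.58.1, each library left out, the mouse as a block, mouse 217 left out and scaling to phagocyte genes. The tests were checked on simulated counts. CPM uses library totals scaled by TMM factors. Tumour and adjacent lung of 1 number come from the same animal, and their deviations from the group means correlated at 0.273, 0.459 and 0.366 for mice 102, 217 and 224, so the numbers pair the samples. Ratios were compared by exact permutation tests.

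The members and the gene lists were chosen with earlier results of these data known, so no list is independent support. Named are all 9 members, at most 4 genes of smallest p that passed per list, or 2 of highest level where none passed, and the 4 genes closest to each of 4 profiles. Med23, deleted in T cells only, was at 18.3 to 36.8 CPM in lung and 34.4 to 46.5 CPM in AT2 cells and checks no label there.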

Additional observations from a re-analysis of the deposited data

How the results depend on the processing

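Between tumours and adjacent lung, the number of members lower was 0 in the reported fit, 2 with DESeq2 and 0 to 3 with 1 library left out, and no member was called higher in any fit. With the mouse as a block, 1113 of all genes and 15 genes of the fixed lists stood higher, C1qa stood at 0.12 and C1qc at 0.036 (log2 fold change), and no member's call changed. Over all genes, the number higher was 1028 with DESeq2, 149 without mouse 217, 278 scaled to phagocyte genes and 137 to 461 with 1 library left out. The number lower was 2690, 698 and 510, 742 scaled to phagocyte genes without Lyz2 (a setting chosen after seeing the data, since Lyz2 made up 68.9% to 89.3% of that sum), and 461 to 1393 with 1 library left out. In the fixed lists, 14 genes were higher with DESeq2, 11 with limma-voom, 2 without mouse 217 and 2 to 8 with 1 library left out. There 58 were lower with DESeq2, 15 without mouse 217, 4 scaled to phagocyte genes, 9 without Lyz2 in that scaling, and 12 to 38 with 1 library left out.

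The sign of the C1q fold changes, all close to 0, turned as follows on the log2 scale. C1qa was at 0.0097 with DESeq2 size factors, 0.13 with limma-voom, 0.11 without mouse 217, 1.13 scaled to phagocyte genes and 1.07 without Lyz2 in that scaling. With 1 library left out it ranged from −0.62 to 0.70, with 0.15 without tumour 102 and 0.20 without tumour 224. C1qb was at −0.22 with library totals, −0.029 with no filter, −0.38 without tumour 217 and −0.32 without adjacent 102, and reached 0.47. C1qc was at 0.041 with limma-voom, 0.011 without mouse 217, 1.03 scaled to phagocyte genes, 0.96 without Lyz2 in that scaling, and −0.58 to 0.48 with 1 library left out, 0.005 without tumour 102 and 0.056 without tumour 224 among them. The log2 ratio differences turned for Adgre1 to Csf1r without tumour 217 (range −0.89 to 0.021), for Trem2 to Csf1r without adjacent 217 (0.42) or adjacent 224 (0.28; range −1.71 to 0.42), for C1qa to C1qb without adjacent 217 (0.15) or tumour 224 (0.12; range −0.14 to 0.15), and for Gpnmb to Spp1 without tumour 102 (−0.042) or adjacent 217 (−0.0042; range up to 0.44). The causes were not tested. In AT2 cells, 11 genes were higher and 6 lower with no filter, 1 lower with DESeq2, and 0 to 1 higher with 1 library left out. There Adgre1 was at −0.089 without wild-type 177 and −0.075 without knockout 175 (up to 0.89 with 1 library left out), and Arg1 at 0.019 with library totals, 0.091 without wild-type 190 and 0.21 without knockout 191. Of 837 other values, 582 kept their direction and call.

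Depth limits the AT2 values of 6 members, which rest on at most 12 counts. In lung, 3 mice and the spread of adjacent lung limit the precision.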
